A study of Mus musculus with 10 samples.

Results

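Nuclear receptors are transcription factors whose activity is set by small lipophilic ligands, and the liver holds receptors for bile acids, foreign compounds, fatty acids, oxysterols, retinoids, steroids and thyroid hormone. Their genes were followed in whole liver of wild-type C57BL/6 mice with 2 forms of induced cholangitis, an inflammation of the bile ducts, and of healthy mice. Members were taken as the 47 genes of the receptor family listed by name, and each matched 1 row of the table of 59408 gene models. Of these, 38 had a value of at least 10 normalised reads in at least 3 of 10 libraries and are described below, among 18390 gene models that passed the same filter. Each library carried its own number in its title, read here as 1 mouse. The 3 PBC livers (mice 7, 8 and 9) came from an autoimmune model of primary biliary cholangitis. These mice were immunised with 100 µg of a 2-octynoic acid-BSA conjugate in complete Freund's adjuvant at day 0 and in incomplete adjuvant at days 14 and 28. They also received 2 µg of α-galactosylceramide, a glycolipid antigen of NKT cells, with the first 2 injections. The 3 PSC livers (mice 11, 13 and 14) came from a non-autoimmune model of primary sclerosing cholangitis. These mice were fed 0.089% 3,5-diethoxycarbonyl-1,4-dihydrocollidine (DDC), a compound that obstructs small bile ducts, for 2 weeks and, after 1 week of regular food, for 1 more week. The 4 control livers (mice 1 to 4) were from healthy mice without either treatment, and the day given for collection was 35. The sources used here do not give sex, age or time of day. Both models are single treatment schemes, so an effect of adjuvant, α-galactosylceramide or DDC itself and an effect of cholangitis cannot be told apart.

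Receptors bind DNA alone, as pairs of the same receptor, or with a retinoid X receptor (RXR) as partner, and most recognise copies of the half-site AGGTCA. Without ligand many recruit corepressors that silence their targets, and with ligand they recruit coactivators. In hepatocytes FXR senses bile acids and limits their synthesis, PXR and CAR induce detoxifying enzymes, and HNF4A maintains the expression of secreted liver proteins. Orphan receptors have no agreed natural ligand or were named before one was known, and the REV-ERB and ROR receptors among them are part of the circadian clock.

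Depth was 38272053 to 95422289 recovered reads a library, so that 3 reads corresponded to 2.81 to 7.66 normalised reads. All 6 hepatocyte markers were present in every group, and their summed level was 8422279.8 to 12379963 normalised reads in PBC, 5460709 to 6612625 in PSC and 8205963 to 9579733 in control livers. Much of this sum was Alb, with means of 7022860 normalised reads in PBC, 3397600 in PSC and 5602140 in control livers. Of the 6 hepatocyte markers, 1 was called higher in PBC, and 0 were called in either direction in PSC. In PSC livers 6 of 6 cholangiocyte markers were called higher, with summed levels of 54116 to 94922 in PSC and 7693 to 13255 in control livers. Of 8 stellate cell and fibroblast markers, 3 were called higher in PSC and 2 in PBC. Their summed levels were 46308 to 52408 in PSC and 14697 to 23280 in control livers. Of 5 B cell markers, 2 were called lower in PSC and 2 higher in PBC. Of 7 sinusoidal and vascular endothelial markers, 1 was called higher in each model and 1 lower in PSC. Of all gene models, 8.25% were called higher and 6.48% lower in PSC, and 7.6% higher and 2.34% lower in PBC. In PBC livers 6 of 7 macrophage, 5 of 6 T cell and 6 of 6 neutrophil markers were called higher. Summed macrophage markers were 70403 to 106447 in PBC, 48849.6 to 68376 in PSC and 26955 to 44714 in control livers, and summed T cell markers 2050.4 to 2576 in PBC, 461 to 577 in PSC and 380.4 to 705 in control livers. No marker was at 0 in all livers. These are bulk samples, in which fewer cells of a type and less RNA per cell cannot be told apart, and the part of these markers in the results below was not tested. A pair of libraries stood apart from their groups. In PBC 8 the genes with the longest eighth of transcripts were 1.06 higher than those with the shortest eighth on the log2 scale, relative to the mean of all livers, against -0.08 and -0.22 in PBC 7 and PBC 9. In control 4 the clock gene Arntl had 26.4 normalised reads, against 763, 827 and 238 in controls 1, 2 and 3. Receptor calls that changed without either library are named beside the result.

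Values per liver are normalised reads, listed in the order of the mouse numbers within each group. A fold change is a difference of mean log2(normalised reads + 1), with the limma standard error (SE), over 3 PBC, 3 PSC and 4 control livers. A receptor is said to have risen or fallen where limma's adjusted p was under 0.05 across all 18390 gene models, and is otherwise given by its values.

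**Figure D1:**
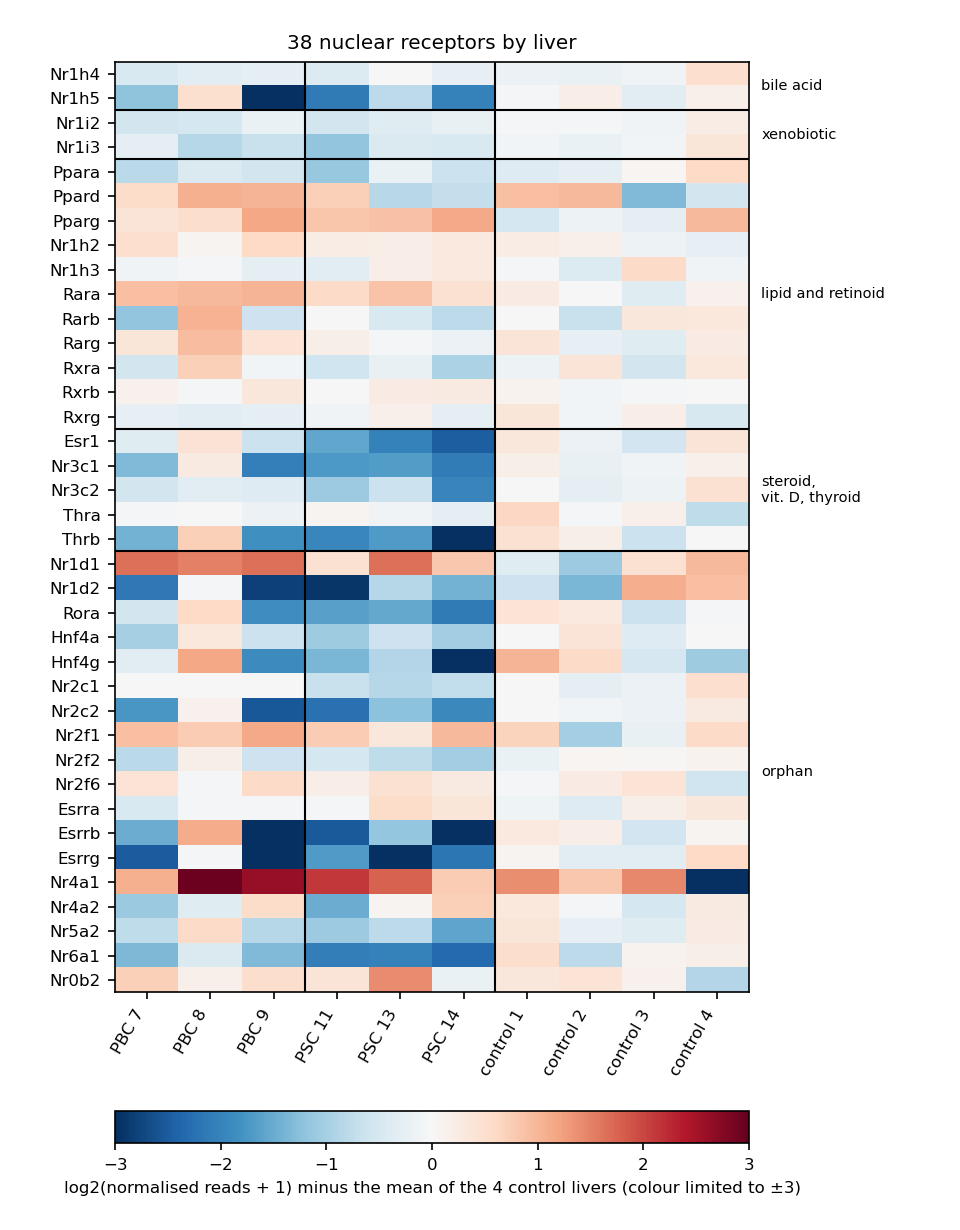
Each row is 1 of the 38 receptors, grouped by ligand class, and each column 1 liver; colour gives log2(normalised reads + 1) minus the mean of the 4 control livers, limited to 3 in either direction. Esr1, Nr3c1, Nr3c2, Thrb and many orphan receptors are blue in the 3 PSC livers, and PBC 8 resembles the control livers more than PBC 7 and PBC 9 do in these rows.

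In the PSC model 10 of 38 receptors fell and none rose in the limma test. At an unadjusted p under 0.05 limma had 3 higher, and at the adjusted threshold edgeR had 0 higher and DESeq2 1 higher. Of all gene models 14.7% were called, 6.48% lower and 8.25% higher. The fallen receptors were the steroid receptors Esr1, Nr3c1 and Nr3c2, the thyroid hormone receptor Thrb and the orphans Nr6a1, Rora, Nr2c2, Nr5a2, Nr2c1 and Hnf4a. The median log2 fold change of the 38 receptors was -0.51, beside 0.057 over all gene models. In 16 receptors every PSC liver was below every control liver, and in 1 (Rara) every PSC liver was above, where the shares of all gene models were 15.6% and 15.9%. By class, 4 of 5 tested steroid and thyroid hormone receptors and 6 of 18 orphans fell. The counts were 0 of 2 bile acid, 0 of 2 xenobiotic and 0 of 11 lipid and retinoid receptors, and the difference between classes was not tested. Classes also differed in the longest annotated transcript. It had 5916 to 6436 bases in Esr1, Nr3c1, Nr3c2 and Thrb, and 2452 in Thra, which did not fall. Bile acid and xenobiotic receptors had 2013 to 2980 bases, lipid and retinoid receptors at most 4905 (Rxra) and orphans 1132 to 10878. The part of length in the class counts was not tested. The number of receptors called in PSC was 2 without PSC 14, 4 without PSC 11, 4 without control 1, 6 without PSC 13 and 6 without control 2. Over all gene models it was 925, 1295, 1582, 1406 and 2080 in the same order, against 2710 with every library. Without control 4, 7 receptors were called, 5 lower and 2 higher (Pparg and Nr1d1), beside 2120 of all gene models. Without PBC 8, 15 receptors were called, 14 lower and 1 higher (Rara), beside 3813 of all gene models.

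In the PBC model 2 of 38 receptors rose, Rara and Nr1d1, and none fell in the limma test. At an unadjusted p under 0.05 limma had 8 lower, and at the adjusted threshold edgeR had 0 lower and DESeq2 1 lower. Of all gene models 9.94% were called, 7.6% higher and 2.34% lower. The median log2 fold change of the 38 receptors was -0.30, beside 0.0054 over all gene models. Every PBC liver was above every control liver in 3 receptors and below in 5, where the shares of all gene models were 12.7% and 6.89%. Of the 10 receptors that fell in PSC, PBC 7 was below every control liver in 7 and PBC 9 in 9, whereas PBC 8 was at or above the lowest control liver in 9. These 10 were picked as low in PSC against the same control livers, which by itself favours low PBC values beside them. The share of all gene models below every control in a single PBC liver was not taken, so no shared response is read from these counts. Without PBC 8, 10 receptors passed the test in PBC, while 3364 of all gene models were called, against 1828 with every library. Rara and Nr1d1 were higher, and Esrrg, Nr1d2, Nr1h5, Nr2c2, Nr3c1, Thrb, Nr6a1 and Hnf4a were lower. The number of receptors was 0 without PBC 9, 1 without PBC 7 and 1 without control 1. Over all gene models it was 736, 1024 and 1117 in the same order. Set directly against each other, PBC livers had a higher level than PSC livers of 1 receptor, Esr1, where 2.24% of all gene models were called, 1.11% higher and 1.13% lower. The call was lost without PSC 13 or PSC 14. PBC livers were above PSC livers without overlap in 6 receptors and below in 1 (Esrra), where the shares of all gene models were 14.6% and 12.6%.

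**Figure D2:**
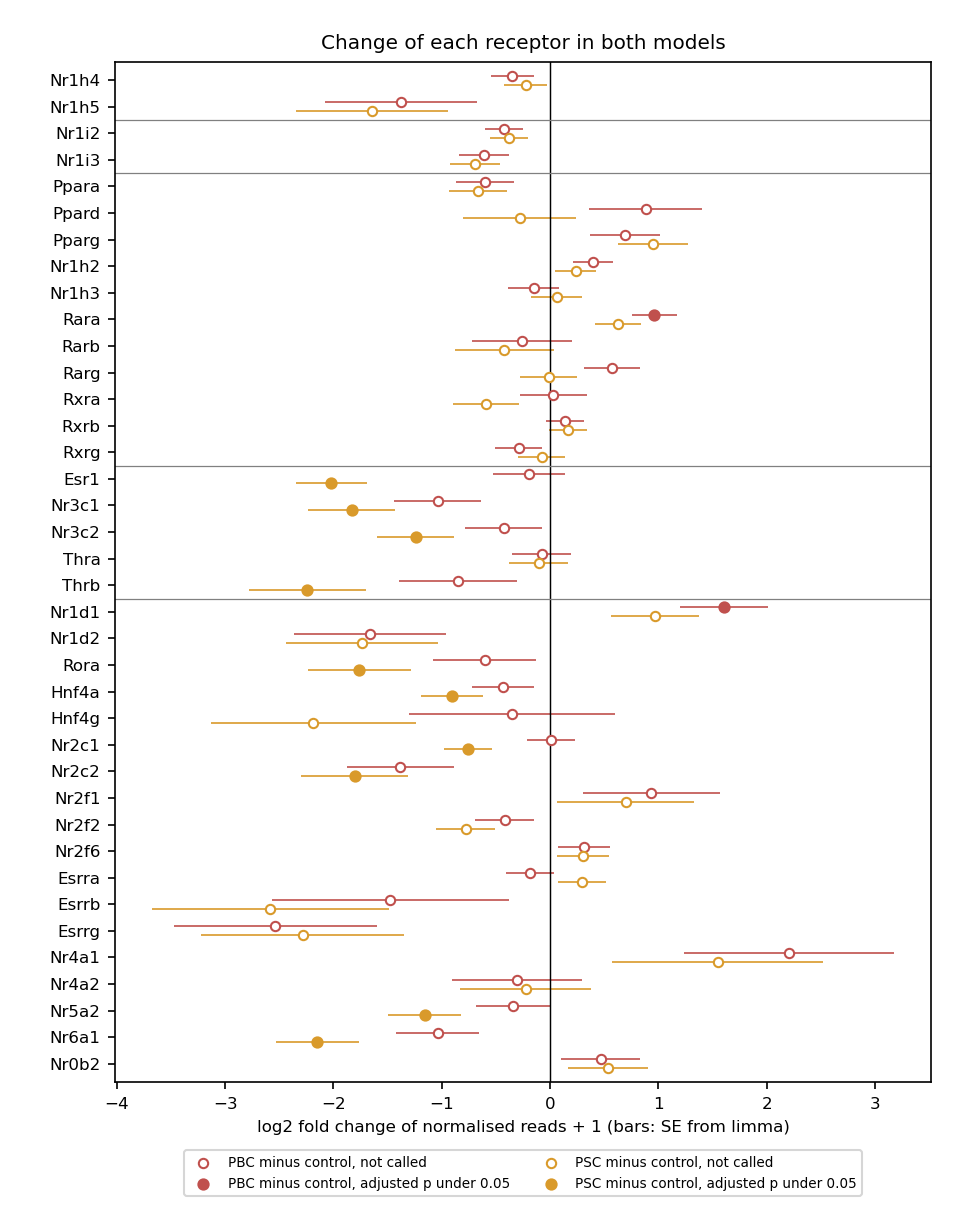
Points give the log2 fold change of each receptor in PBC (red) and PSC (yellow) livers against control livers, bars the SE from limma, and filled points an adjusted p under 0.05. The 10 filled PSC points lie left of 0 and the 2 filled PBC points, Rara and Nr1d1, right of 0.

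Promoters of 43 of the 47 members were found in a RefSeq table (GRCm38.p6, the assembly of mm10). The 250 bases before the start site were searched on both strands for the receptor half-site AGGTCA, which reads TGACCT on the other strand, and for the E-box CACGTG, to which the clock activators bind. The windows below belong to 3 receptors that fell in PSC and hold a half-site, and to the 2 that rose in PBC. They are written 5′ to 3′ on the strand of the gene, with matches in capitals. Where a gene had several windows the one with the most matches is shown, and among equal windows the one with the lowest start coordinate. The Nr6a1 window lies inside the deposited gene model and the Thrb window outside it, upstream, so both belong to start sites other than the end of that model.
Nr6a1 (chr2:38784516-38784765, - strand): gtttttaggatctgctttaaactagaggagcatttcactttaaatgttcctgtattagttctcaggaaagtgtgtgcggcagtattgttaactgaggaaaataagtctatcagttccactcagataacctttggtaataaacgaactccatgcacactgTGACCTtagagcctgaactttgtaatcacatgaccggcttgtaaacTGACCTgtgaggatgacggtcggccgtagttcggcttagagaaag
Thrb (chr14:17660710-17660959, + strand): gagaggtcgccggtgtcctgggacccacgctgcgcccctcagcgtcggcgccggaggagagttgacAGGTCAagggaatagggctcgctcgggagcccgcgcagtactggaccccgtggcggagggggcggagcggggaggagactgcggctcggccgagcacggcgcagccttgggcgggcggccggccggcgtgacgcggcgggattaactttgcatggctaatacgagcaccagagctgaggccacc
Nr5a2 (chr1:136960449-136960698, - strand): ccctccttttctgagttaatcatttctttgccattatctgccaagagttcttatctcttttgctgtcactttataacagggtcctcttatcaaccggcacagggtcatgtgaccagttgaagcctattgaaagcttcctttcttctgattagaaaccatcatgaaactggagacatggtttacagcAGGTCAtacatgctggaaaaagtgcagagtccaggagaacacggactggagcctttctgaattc
Rara (chr11:98937468-98937717, + strand): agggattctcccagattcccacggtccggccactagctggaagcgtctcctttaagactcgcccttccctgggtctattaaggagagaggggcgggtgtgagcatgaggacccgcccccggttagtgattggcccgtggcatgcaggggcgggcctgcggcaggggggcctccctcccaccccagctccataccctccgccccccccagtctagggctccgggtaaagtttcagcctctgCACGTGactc
Nr1d1 (chr11:98775378-98775627, - strand): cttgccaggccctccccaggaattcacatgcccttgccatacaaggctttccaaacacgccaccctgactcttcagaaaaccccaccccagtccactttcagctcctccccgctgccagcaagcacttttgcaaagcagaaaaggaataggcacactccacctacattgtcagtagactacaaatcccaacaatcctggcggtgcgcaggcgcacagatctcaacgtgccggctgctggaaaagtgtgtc
The Nr6a1 window held 2 half-sites, beginning 91 and 45 bases before the start site. Thrb and Nr5a2 held 1 each, beginning 184 and 64 bases before it. Rara held an E-box beginning 10 bases before the start site, and the Nr1d1 window held neither motif. At least 1 window of the gene held the half-site in 15.8% of 27025 genes, in 9 of 35 tested receptors and in 3 of the 9 receptors that fell in PSC and had a promoter in the table. The E-box was present in 6.86% of these genes, in 4 of 35 tested receptors and in 1 of these 9, which was Thrb. That E-box lay in a window of Thrb that is not shown. Such a match describes the letters in the window only.

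Per kilobase of exon, the mean level in control livers was highest for Nr1h3 at 8308, Nr2f6 at 7931, Nr0b2 at 4298, Nr1h4 at 3172 and Nr1i3 at 3130.3 normalised reads per kilobase. Lowest among the 38 were Nr4a2 at 6.24, Esrrg at 5.99, Esrrb at 2.86 and Nr2f1 at 1.53 normalised reads per kilobase. The 10 receptors that fell in PSC spanned 18.8 (Nr3c2) to 1875 (Hnf4a) on this scale, so they included both scarce and abundant receptors. Of the 9 members left out, Esr2, Rorb, Nr2e1, Nr2e3 and Nr0b1 had 0 reads in all 10 libraries. The highest value in any liver was 2.78 for the progesterone receptor Pgr, 3.23 for the vitamin D receptor Vdr, 3.23 for Nr5a1 and 19.1 for Nr4a3, the last in PBC 8.

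Neither bile acid receptor passed the test in either model. Nr1h4 encodes FXR, the main bile acid sensor. Nr1h4 had 5229.7, 5750.0 and 5897 normalised reads in the PBC livers, 5391, 7041 and 6013 in the PSC livers and 6281, 6232, 6616 and 10090.5 in the control livers. Every PBC liver was below every control liver, while PSC 13 overlapped the controls, and the log2 fold change of Nr1h4 was -0.35 in PBC (adjusted p = 0.291) and -0.23 in PSC (adjusted p = 0.483). Control 4 was far above the other 3 controls. Nr1h5 encodes FXR-beta, which in mice responds to lanosterol. Nr1h5 had 32.3, 107 and 6.35 normalised reads in the PBC livers, 16.9, 43.7 and 18.1 in the PSC livers and 75.1, 87.3, 61.3 and 84.7 in the control livers. All PSC livers were below the controls, whereas PBC 8 was above them and PBC 7 and PBC 9 below, and the log2 fold change of Nr1h5 was -1.38 in PBC (adjusted p = 0.23) and -1.64 in PSC (adjusted p = 0.133). Without PBC 8 its log2 fold change in PBC was -2.31 (adjusted p = 0.0205). The Nr1h5 change in PSC passed the test with only the compared groups fitted, without PBC 8 and without PBC 9 (adjusted p = 0.0145, 0.0454 and 0.0354).

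Counts in the lists of partner genes that follow stand beside 7.6% higher and 2.34% lower of all gene models in PBC, and 8.25% higher and 6.48% lower in PSC. Of 9 tested FXR target genes, 2 rose and 1 fell in PBC (median log2 fold change 0.27), and 2 rose and 1 fell in PSC (median -0.17). Slco1b2, which encodes a basolateral uptake transporter for bile acids and bilirubin, fell by 0.78 in PBC (SE 0.22, adjusted p = 0.0381) and fell by 0.87 in PSC (SE 0.22, adjusted p = 0.0192). In PSC livers Slc51b, one chain of the basolateral bile acid exporter, rose by 1.54 (SE 0.42, adjusted p = 0.0286), and Abcb4, the canalicular phospholipid floppase, rose by 0.76 (SE 0.22, adjusted p = 0.0341). In PBC livers Fetub, for fetuin B, rose by 0.89 (SE 0.24, adjusted p = 0.0334), and Kng1, for kininogen and named after its values were seen, rose by 0.93 (SE 0.26, adjusted p = 0.0381). Called members of the list thus moved in opposite directions in both models. The list pooled genes of bile acid synthesis, which FXR limits, with its other targets. Neither the mixed directions nor the medians therefore measure the activity of FXR. The Slco1b2 change in PBC no longer passed the test without PBC 7, PBC 9, PSC 11, PSC 13, PSC 14, control 1 or control 4, with no filter on low values, with edgeR, or with only the compared groups fitted (adjusted p 0.0501 to 0.16). The Fetub change in PBC no longer passed the test without PBC 7, PBC 9, PSC 13, PSC 14, control 1 or control 3, with no filter on low values, or with only the compared groups fitted (adjusted p 0.0513 to 0.162). The Kng1 change in PBC no longer passed the test without PBC 7, PBC 9, PSC 11, PSC 13, PSC 14, control 1, control 2 or control 3, with no filter on low values, or with only the compared groups fitted (adjusted p 0.0534 to 0.162). The Slco1b2 change in PSC no longer passed the test without PSC 11, PSC 14 or control 1 (adjusted p 0.0528 to 0.0871). The Slc51b change in PSC no longer passed the test without PSC 11, PSC 13, PSC 14, control 1 or control 2 (adjusted p 0.0624 to 0.125). The Abcb4 change in PSC no longer passed the test without PSC 11, PSC 13, PSC 14, control 1, control 3 or control 4 or with no filter on low values (adjusted p 0.0543 to 0.135).

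Both xenobiotic receptors were below every control liver in every PBC and PSC liver, and neither passed the test. Nr1i2 encodes PXR, which is activated by many drugs and by some bile acids. Nr1i2 had 3275, 3311 and 4145 normalised reads in the PBC livers, 3246, 3701 and 4105 in the PSC livers and 4589, 4559, 4447 and 5608 in the control livers. Its log2 fold change was -0.43 in PBC (adjusted p = 0.136) and -0.38 in PSC (adjusted p = 0.161). Nr1i3 encodes CAR, the receptor for phenobarbital-type inducers. Nr1i3 had 8236, 5584 and 6356 normalised reads in the PBC livers, 4447, 7524 and 7325 in the PSC livers and 9543, 8741, 9579 and 13081 in the control livers. The log2 fold change of Nr1i3 was -0.61 in PBC (adjusted p = 0.11) and -0.69 in PSC (adjusted p = 0.06). The Nr1i3 change in PSC passed the test with TMM scaling, with DESeq2, without PBC 8 and with the length trend described below removed (adjusted p = 0.0425, 0.0319, 0.0451 and 0.0432).

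Of 14 CAR and PXR target genes, 3 rose in PBC (median log2 fold change 0.61), and 3 rose and 1 fell in PSC (median 0.36). In PBC livers Cyp2b10, a cytochrome P450 used as the standard readout of CAR, rose by 4.08 (SE 0.43, adjusted p = 0.000123), and the related row of Cyp2c29 rose by 1.37 (SE 0.22, adjusted p = 0.00219). Both were also higher in PBC than in PSC livers, by 3.21 for Cyp2b10 (adjusted p = 0.00318) and 1.74 for Cyp2c29 (adjusted p = 0.00268). In PSC livers Gsta1, a glutathione transferase gene, rose by 4.63 (SE 0.71, adjusted p = 0.00122), and Cyp3a11, the standard PXR target and named after its values were seen, rose by 1.00 (SE 0.23, adjusted p = 0.0112). Slco1a4, an organic anion uptake transporter gene, fell by 1.21 in PSC (SE 0.34, adjusted p = 0.0333). Abcc3, a basolateral export pump, rose by 0.91 in PBC (SE 0.17, adjusted p = 0.0042) and rose by 1.08 in PSC (SE 0.17, adjusted p = 0.00118). The Gsta1 change was 5.46 (adjusted p = 1e-05) without control 4, 3.81 (adjusted p = 0.00608) with edgeR and 3.82 (adjusted p = 0.000611) with DESeq2. The Cyp2c29 row also covers a pseudogene, Cyp2c53-ps, and Gsta1 has near-identical paralogs, so reads may be split among copies. The Cyp3a11 change in PSC no longer passed the test without PSC 14 or with no filter on low values (adjusted p 0.0683 to 0.0744). The Slco1a4 change in PSC no longer passed the test without PSC 11, PSC 13, PSC 14, control 1 or control 4 (adjusted p 0.064 to 0.135).

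Among the 11 lipid and retinoid receptors, only Rara passed the test, and only in PBC. Rara encodes retinoic acid receptor alpha (GSMG0005896, chromosome 11, 98937675 to 98974942, mm10 as in the deposited table). Rara had 654, 682 and 707 normalised reads in the PBC livers, 518, 634 and 477 in the PSC livers and 411, 348, 271 and 382 in the control livers. All PBC livers were above all PSC livers, and all PSC livers above all control livers. Rara rose by 0.96 in PBC (SE 0.21, adjusted p = 0.0123), and its log2 fold change in PSC was 0.63 (adjusted p = 0.0616). The Rara change in PBC no longer passed the test without PBC 9 (adjusted p = 0.0563). The PSC change passed the test with DESeq2, without PBC 8 and with the length trend removed (adjusted p = 0.0343, 0.0457 and 0.0242). The Rara model overlaps that of the proliferation gene Top2a, on the opposite strand, over 37268 bases. Overlaps here and below are between whole gene models, introns included, and the overlap of exons was not taken. The exons of Rara cover 4281 bases. The sources used here do not say whether strand was used in counting. Top2a had 293, 153 and 281 normalised reads in the PBC livers, 463, 136 and 299 in the PSC livers and 57, 68.03, 76.6 and 84.7 in the control livers. Top2a was thus higher in every PBC and PSC liver than in any control liver, and its part in the Rara values was not tested. The other retinoic acid receptors, Rarb and Rarg, had log2 fold changes of -0.26 and 0.57 in PBC (adjusted p = 0.762 and 0.18) and -0.42 and -0.014 in PSC (adjusted p = 0.577 and 0.978). Rarb ranged from 74.6 to 354 in PBC, 98.6 to 169 in PSC and 108 to 217 normalised reads in control livers, with PBC 8 highest of all 10. Of 6 tested retinoid target genes, 1 rose in each model. This was Dhrs3, which encodes a retinaldehyde reductase and rose by 0.70 in PBC (SE 0.20, adjusted p = 0.0425) and rose by 0.75 in PSC (SE 0.20, adjusted p = 0.0245). The Dhrs3 change in PBC no longer passed the test without PBC 7, PBC 9, PSC 11, PSC 13, PSC 14, control 1, control 2, control 3 or control 4, with no filter on low values, with TMM scaling, with edgeR, or with only the compared groups fitted (adjusted p 0.0502 to 0.182). The Dhrs3 change in PSC no longer passed the test without PSC 11, PSC 13 or PSC 14 (adjusted p 0.0742 to 0.0885).

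The 3 RXR genes, whose products pair with most ligand-sensing receptors, did not pass the test. Rxra ranged from 2464 to 5905 normalised reads in PBC, 1857 to 3062 in PSC and 2429 to 4684 in control livers, and the log2 fold change of Rxra was 0.030 in PBC (adjusted p = 0.965) and -0.59 in PSC (adjusted p = 0.219). PBC 8 had the highest Rxra level of all livers and PSC 14 the lowest. Rxrb ranged from 1364 to 1801 normalised reads in PBC, 1409.7 to 1717 in PSC and 1347 to 1536 in control livers, and the log2 fold change of Rxrb was 0.14 in PBC (adjusted p = 0.659) and 0.17 in PSC (adjusted p = 0.555). Rxrg ranged from 824 to 888 normalised reads in PBC, 856 to 1165 in PSC and 755 to 1348 in control livers, and the log2 fold change of Rxrg was -0.29 in PBC (adjusted p = 0.431) and -0.078 in PSC (adjusted p = 0.844). The groups overlapped for each of them.

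The 3 PPAR genes encode fatty acid sensors that act on fat oxidation (PPAR alpha), on many tissues (PPAR delta) and on fat storage (PPAR gamma). Ppara had 1795, 2339 and 2137 normalised reads in the PBC livers, 1424, 2729 and 2031 in the PSC livers and 2412, 2607, 3288 and 4797 in the control livers. Every PBC liver was below every control liver, PSC 13 overlapped them, and the log2 fold change of Ppara was -0.60 in PBC (adjusted p = 0.168) and -0.66 in PSC (adjusted p = 0.112). Pparg had 895, 999 and 1536 normalised reads in the PBC livers, 1221, 1268 and 1525 in the PSC livers and 477, 617, 559 and 1361 in the control livers. All PBC and PSC livers were above controls 1, 2 and 3, and control 4 lay among them, so that the groups overlapped and the log2 fold change of Pparg was 0.69 in PBC (adjusted p = 0.188) and 0.95 in PSC (adjusted p = 0.0619). Without control 4, Pparg was 1.02 (adjusted p = 0.0201) in PBC and 1.28 (adjusted p = 0.0051) in PSC. Ppard had 445, 634 and 614 normalised reads in the PBC livers, 499, 168 and 182 in the PSC livers and 565, 597, 120.1 and 205 in the control livers. Its values ran over a wide range within PSC and control livers, and the log2 fold change of Ppard was 0.88 in PBC (adjusted p = 0.31) and -0.28 in PSC (adjusted p = 0.759). Of 15 PPAR alpha target genes, limma called 0 in either direction in PBC (median log2 fold change -0.47) or in PSC (median -0.14) against control. In PBC, limma had 0 higher and 4 lower at an unadjusted p under 0.05, and at the adjusted threshold edgeR called 0 higher and 0 lower and DESeq2 0 higher and 2 lower. In PSC, limma had 1 higher and 3 lower at an unadjusted p under 0.05, and at the adjusted threshold edgeR called 0 higher and 1 lower and DESeq2 0 higher and 2 lower. Vnn1, which encodes the vanin-1 pantetheinase, was lower in PBC than in PSC livers by a log2 fold change of -1.33 (SE 0.29, adjusted p = 0.0336). The Vnn1 change between PBC and PSC no longer passed the test without PBC 7, PBC 8, PBC 9, PSC 13 or PSC 14 (adjusted p 0.0624 to 0.172).

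The oxysterol receptors LXR alpha (Nr1h3) and LXR beta (Nr1h2) drive cholesterol export and fatty acid synthesis. Nr1h3 ranged from 14266 to 16576 normalised reads in PBC, 13841 to 21173 in PSC and 13126 to 25655 in control livers, and the log2 fold change of Nr1h3 was -0.15 in PBC (adjusted p = 0.724) and 0.060 in PSC (adjusted p = 0.89). Nr1h2 ranged from 4536 to 6466 normalised reads in PBC, 4929.9 to 5205 in PSC and 3632 to 5025 in control livers, and the log2 fold change of Nr1h2 was 0.40 in PBC (adjusted p = 0.199) and 0.24 in PSC (adjusted p = 0.429). Neither receptor passed the test, and the groups overlapped. Of 11 LXR target genes, 1 rose in PBC (median 0.45) and 3 fell in PSC (median -0.54). Scd1, the stearoyl-CoA desaturase gene, fell by 1.90 in PSC (SE 0.47, adjusted p = 0.0171). Fasn, the fatty acid synthase gene, fell by 1.17 in PSC (SE 0.27, adjusted p = 0.0121) and was higher in PBC than in PSC livers by 2.06 (adjusted p = 0.00282). Abca1, which encodes a cholesterol exporter to HDL, fell by 1.45 in PSC (SE 0.37, adjusted p = 0.0206). Abcg8, one chain of the biliary sterol exporter, rose by 0.80 in PBC (SE 0.20, adjusted p = 0.0272) and was higher in PBC than in PSC livers by 1.34 (adjusted p = 0.00669). The Scd1 change in PSC no longer passed the test without PSC 13 or PSC 14 (adjusted p 0.0548 to 0.0938). The Fasn change in PSC no longer passed the test without PSC 13 or PSC 14 or with the length trend removed (adjusted p 0.0531 to 0.0823). The Abca1 change in PSC no longer passed the test without PSC 11, PSC 13, PSC 14 or control 2 (adjusted p 0.0528 to 0.0991). The Abcg8 change in PBC no longer passed the test without PBC 7, PBC 9, control 1 or control 4 or with only the compared groups fitted (adjusted p 0.052 to 0.124).

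In the steroid and thyroid hormone class, 4 of 5 tested receptors fell in PSC, while both receptors that rose in PBC belong to other classes. Esr1 encodes estrogen receptor alpha (GSMG0003741, chromosome 10, 4611593 to 5005633). Esr1 had 371, 645 and 309 normalised reads in the PBC livers, 162, 118 and 85.5 in the PSC livers and 610.1, 426, 324 and 632 in the control livers. Every PSC liver was below every PBC and every control liver, while the PBC and control livers overlapped. Esr1 fell by 2.02 in PSC (SE 0.33, adjusted p = 0.00184), and its log2 fold change in PBC was -0.19 (adjusted p = 0.75). Set directly against PSC livers, PBC livers were 1.82 higher (SE 0.35, adjusted p = 0.0171). The PSC decrease held in all 19 alternatives, with log2 fold changes of -2.25 to -1.61. The Esr1 change between PBC and PSC no longer passed the test without PSC 13 or PSC 14 (adjusted p 0.0731 to 0.104). Of 5 estrogen target genes, 3 were tested. Susd4, for a complement inhibitor, fell by 1.90 in PSC (SE 0.43, adjusted p = 0.012), and Fgl1, for fibrinogen-like protein, rose by 1.21 in PBC (SE 0.30, adjusted p = 0.0233) and rose by 1.09 in PSC (SE 0.30, adjusted p = 0.0284). The Susd4 change in PSC no longer passed the test without PSC 13 or PSC 14 (adjusted p 0.0521 to 0.0584). The Fgl1 change in PBC no longer passed the test without PBC 7 or PBC 9, with no filter on low values, or with only the compared groups fitted (adjusted p 0.0528 to 0.105). The Fgl1 change in PSC no longer passed the test without PSC 11, PSC 13 or PSC 14, with no filter on low values, or with the length trend removed (adjusted p 0.0537 to 0.107).

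Nr3c1 encodes the glucocorticoid receptor (GSMG0018893, chromosome 18, 39410547 to 39490676). Nr3c1 had 361, 1089.8 and 220.1 normalised reads in the PBC livers, 273, 285 and 212 in the PSC livers and 1031, 778, 843 and 1009 in the control livers. The PSC livers, PBC 7 and PBC 9 were below every control liver, and PBC 8 was above all of them. Nr3c1 fell by 1.83 in PSC (SE 0.40, adjusted p = 0.00993), and its log2 fold change in PBC was -1.04 (adjusted p = 0.118), or -1.69 (adjusted p = 0.00183) without PBC 8. The Nr3c1 change in PSC no longer passed the test without PSC 14 (adjusted p = 0.0576). Nr3c2 encodes the mineralocorticoid receptor (GSMG0037470, chromosome 8, 76902508 to 77245011). Nr3c2 had 77.1, 89.2 and 86.8 normalised reads in the PBC livers, 52.5, 72.8 and 27.9 in the PSC livers and 113, 92.4, 102 and 157 in the control livers. PSC livers were lowest, PBC livers between, and control livers highest, without overlap between any of the groups. Nr3c2 fell by 1.24 in PSC (SE 0.36, adjusted p = 0.0338), and its log2 fold change in PBC was -0.43 (adjusted p = 0.475). The Nr3c2 change in PSC no longer passed the test without PSC 11, PSC 14, control 1, control 4 or control 4 and PBC 8, with no filter on low values, or with the length trend removed (adjusted p 0.0595 to 0.178).

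Of 12 glucocorticoid target genes, 3 rose in PBC (median log2 fold change 0.73), and 2 rose and 1 fell in PSC (median 0.21). Lcn2, which encodes the iron-scavenging acute phase protein lipocalin-2, rose by 6.13 in PBC (SE 0.52, adjusted p = 3.16e-05) and rose by 7.05 in PSC (SE 0.52, adjusted p = 3.77e-06). Gadd45b, a stress response gene, rose by 2.10 in PBC (SE 0.46, adjusted p = 0.0122) and rose by 2.29 in PSC (SE 0.46, adjusted p = 0.00606). Lcn2 and Gadd45b are also induced by inflammatory signals. All 6 neutrophil markers rose in both models, with summed levels of 35428 to 107814 in PBC, 8645 to 15233 in PSC and 337 to 6195 in control livers, and their part in these changes was not tested. Fkbp5, which encodes a chaperone that restrains the glucocorticoid receptor, fell by 1.11 in PSC (SE 0.24, adjusted p = 0.00842). Mt1, for metallothionein, rose by 2.34 in PBC (SE 0.68, adjusted p = 0.0452). The Gadd45b change in PBC no longer passed the test without PBC 9 (adjusted p = 0.0641). The Mt1 change in PBC no longer passed the test without PBC 7, PBC 9, PSC 11, PSC 13, PSC 14 or control 2, with no filter on low values, with TMM scaling, with edgeR, with DESeq2, or with only the compared groups fitted (adjusted p 0.0519 to 0.176). Without control 4 the Mt1 change was 1.51 (adjusted p = 0.0205), and without control 4 and PBC 8 the Gadd45b change was 1.48 (adjusted p = 0.00642). The Fkbp5 change in PSC no longer passed the test without PSC 14 (adjusted p = 0.0566).

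Thrb encodes thyroid hormone receptor beta, the main form in hepatocytes (GSMG0011254, chromosome 14, 17826893 to 18038088). Thrb had 84.6, 373 and 63.5 normalised reads in the PBC livers, 58.2, 69.6 and 26.3 in the PSC livers and 315, 258, 146 and 229 in the control livers. The PSC livers, PBC 7 and PBC 9 were below every control liver, and PBC 8 was above all of them. Thrb fell by 2.24 in PSC (SE 0.54, adjusted p = 0.0159), and its log2 fold change in PBC was -0.85 (adjusted p = 0.345), or -1.63 (adjusted p = 0.0206) without PBC 8. The Thrb change in PSC no longer passed the test without PSC 14 (adjusted p = 0.0944). Thra, which encodes the alpha receptor, had overlapping values in all groups (762 to 851 in PBC, 697 to 907 in PSC and 505 to 1321 normalised reads in control livers), and the log2 fold change of Thra was -0.077 in PBC (adjusted p = 0.891) and -0.10 in PSC (adjusted p = 0.832). The Thra model overlaps Nr1d1 by 1072 bases on the opposite strand, and reads there cannot be told apart where strand was not used. Of 7 thyroid hormone target genes, 1 rose and 1 fell in PBC (median log2 fold change -0.44), and 3 fell in PSC (median -1.03). Dio1, for the deiodinase that activates thyroid hormone, fell by 0.73 in PBC (SE 0.20, adjusted p = 0.0367) and fell by 1.03 in PSC (SE 0.20, adjusted p = 0.00518). Me1, for malic enzyme, fell by 1.62 in PSC (SE 0.38, adjusted p = 0.0132), and Gpd2, for mitochondrial glycerol-3-phosphate dehydrogenase, fell by 1.05 (SE 0.25, adjusted p = 0.0154). Bcl3, an NF-kappaB cofactor gene, rose by 1.21 in PBC (SE 0.26, adjusted p = 0.0108). The Dio1 change in PBC no longer passed the test without PBC 7, PBC 8, PBC 9, PSC 13, control 2, control 3, control 4 or control 4 and PBC 8, with no filter on low values, or with only the compared groups fitted (adjusted p 0.0517 to 0.14). The Bcl3 change in PBC no longer passed the test without PBC 9 (adjusted p = 0.0614). The Me1 change in PSC no longer passed the test without PSC 11 (adjusted p = 0.0619). The Gpd2 change in PSC no longer passed the test without PSC 11 or PSC 14 (adjusted p 0.0656 to 0.0799).

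**Figure D3:**
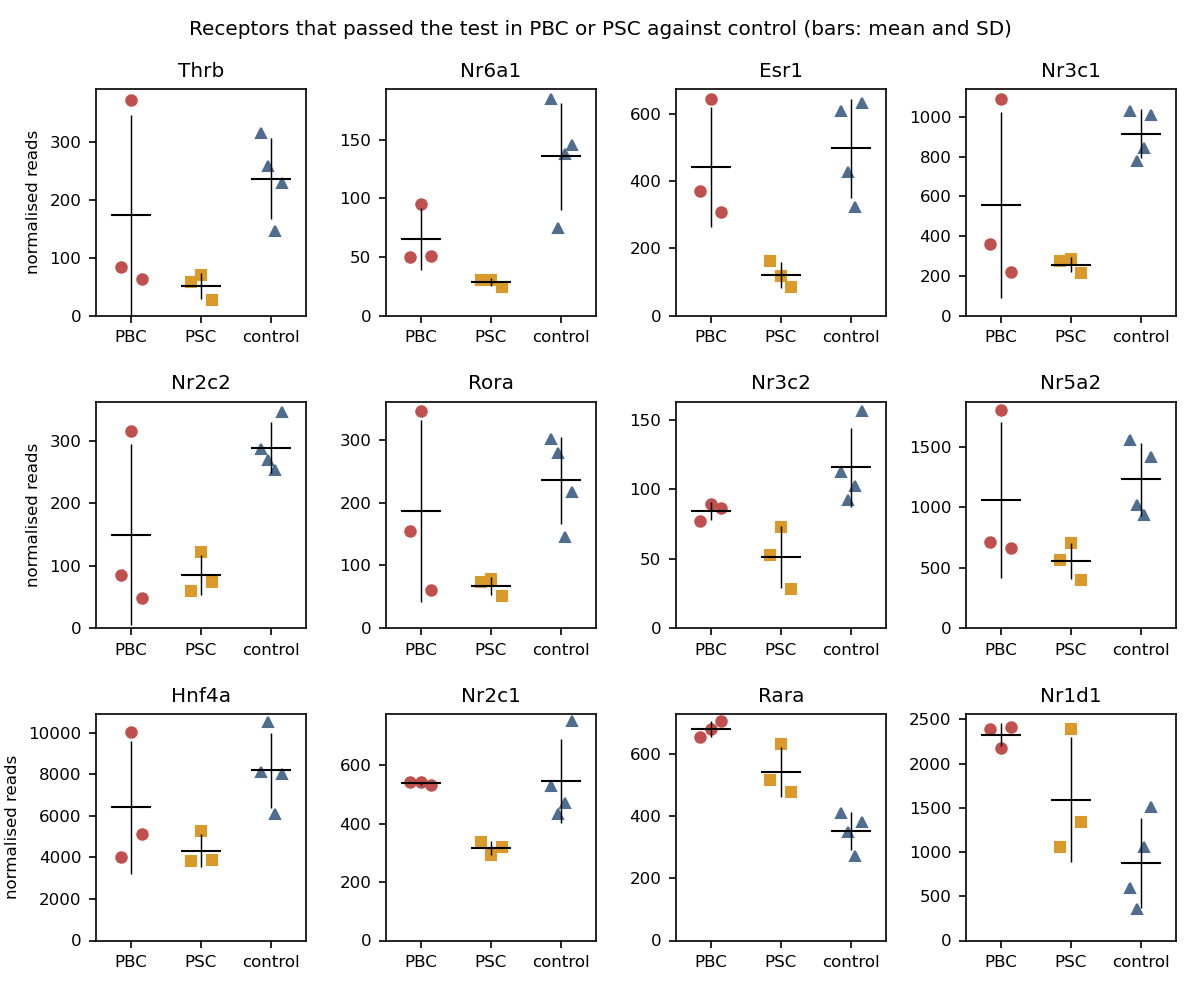
Normalised reads (linear axes from 0) of the 12 receptors that passed the test in PBC or PSC against control, 1 point a liver, with the mean and SD of each group. The PSC points lie below all control points in the first 10 panels, 1 PBC point lies apart from the other 2 in most of them, and the PBC points lie above all control points for Rara and Nr1d1.

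Among the orphans, Nr1d1 rose in PBC and 6 of 18 tested receptors fell in PSC. Nr1d1 encodes REV-ERB alpha, a heme-binding repressor of the clock gene Arntl (GSMG0007334, chromosome 11, 98767933 to 98775378). Nr1d1 had 2392, 2179.6 and 2410.1 normalised reads in the PBC livers, 1055, 2389 and 1336 in the PSC livers and 592, 361, 1058 and 1511 in the control livers. The PBC livers were above every control liver, and PSC 13 was as high as they were. Nr1d1 rose by 1.60 in PBC (SE 0.41, adjusted p = 0.0264), and its log2 fold change in PSC was 0.97 (adjusted p = 0.127), or 1.30 (adjusted p = 0.0374) without control 4. The Nr1d1 change in PBC no longer passed the test without PBC 7, PBC 9 or control 1 or with only the compared groups fitted (adjusted p 0.0546 to 0.097). Nr1d2 encodes the related REV-ERB beta. Nr1d2 had 440.2, 1889.6 and 275 normalised reads in the PBC livers, 256, 1063 and 725 in the PSC livers and 1269, 746, 4136 and 3596 in the control livers. Controls 3 and 4 were well above controls 1 and 2, PBC 8 stood apart from PBC 7 and PBC 9, and the log2 fold change of Nr1d2 was -1.66 in PBC (adjusted p = 0.149) and -1.73 in PSC (adjusted p = 0.115). Without PBC 8 the Nr1d2 change in PBC was -2.47 (adjusted p = 0.0254).

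The levels of the clock genes varied widely among the control livers. Arntl, the gene for the clock activator BMAL1, had 649, 687 and 573 normalised reads in the PBC livers, 541, 330.0 and 228 in the PSC livers and 763, 827, 238 and 26.4 in the control livers. Dbp, a clock output gene, had 164, 242 and 260.3 normalised reads in the PBC livers, 139.8, 1082 and 920.3 in the PSC livers and 97.2, 35.9, 1264 and 8406 in the control livers. Control 4 was lowest for Arntl and highest for Dbp, and controls 1 and 2 were the reverse. Of 15 clock genes, 2 rose in PBC (median log2 fold change 0.0022), and 2 rose and 2 fell in PSC (median -0.092). Bhlhe40, a repressor gene, rose by 1.14 in PBC (SE 0.20, adjusted p = 0.00341) and rose by 0.80 in PSC (SE 0.20, adjusted p = 0.0197). Nfil3, which represses the targets of Dbp, rose by 1.51 in PBC (SE 0.36, adjusted p = 0.0187) and rose by 1.24 in PSC (SE 0.36, adjusted p = 0.0335). In PSC livers Per2 fell by 1.91 (SE 0.55, adjusted p = 0.0353) and Clock fell by 1.71 (SE 0.54, adjusted p = 0.0493). The hour at which each liver was collected was not stated, so the part of the hour in the Nr1d1, Nr1d2 and clock gene values was not tested. The Nfil3 change in PBC no longer passed the test without PBC 9 or with only the compared groups fitted (adjusted p 0.0547 to 0.102). The Nfil3 change in PSC no longer passed the test without PSC 11, PSC 13, PSC 14, control 3, control 4 or control 4 and PBC 8, with edgeR, or with the length trend removed (adjusted p 0.0607 to 0.131). The Bhlhe40 change in PSC no longer passed the test without PSC 11, PSC 13, PSC 14 or control 1 (adjusted p 0.0634 to 0.0889). The Per2 change in PSC no longer passed the test without PSC 11, PSC 13, PSC 14 or control 2 or with the length trend removed (adjusted p 0.0553 to 0.128). The Clock change in PSC no longer passed the test without PBC 7, PSC 11, PSC 13, PSC 14, control 1, control 2 or control 3, with no filter on low values, with TMM scaling, or with the length trend removed (adjusted p 0.0552 to 0.185).

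**Figure D4:**
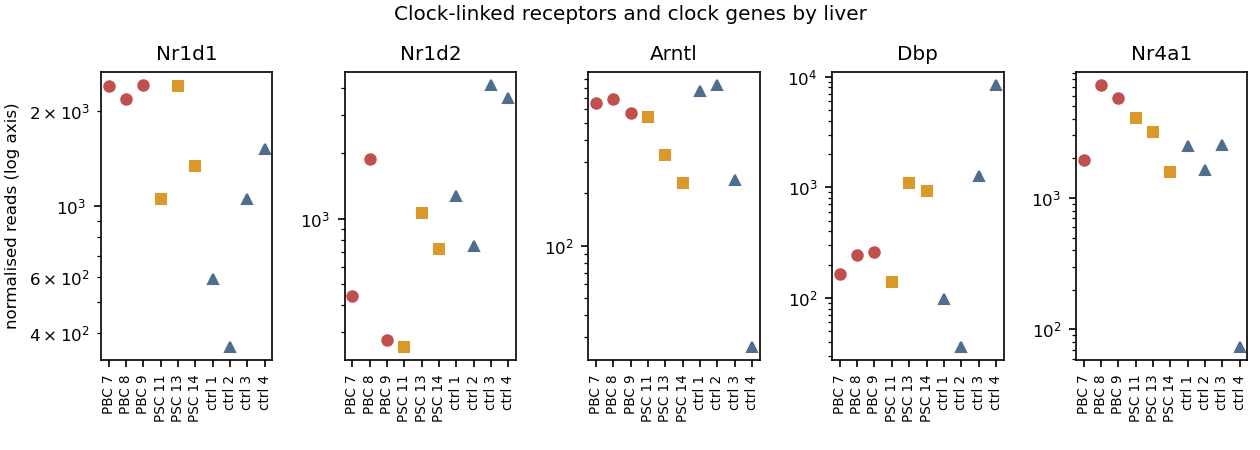
Normalised reads (log axes) of Nr1d1, Nr1d2, the clock genes Arntl and Dbp, and the immediate early receptor gene Nr4a1, 1 point a liver. Control 4 is lowest of all livers for Arntl and Nr4a1 and highest for Dbp, and the 3 PBC livers lie close together and above the controls for Nr1d1.

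Rora encodes ROR alpha, an activator that binds the same sites as the REV-ERB repressors (GSMG0039719, chromosome 9, 68653786 to 69388246). Rora had 154, 346 and 61.4 normalised reads in the PBC livers, 73.2, 77.6 and 50.9 in the PSC livers and 301, 279, 146 and 217 in the control livers. PSC livers and PBC 9 were below every control liver, and PBC 7 and PBC 8 overlapped or exceeded them. Rora fell by 1.76 in PSC (SE 0.47, adjusted p = 0.0261), and its log2 fold change in PBC was -0.61 (adjusted p = 0.45), or -1.21 (adjusted p = 0.0597) without PBC 8. The Rora change in PSC no longer passed the test without PSC 11, PSC 13, PSC 14, control 1 or control 2 (adjusted p 0.0575 to 0.119).

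Hnf4a encodes HNF4 alpha, a regulator of hepatocyte identity (GSMG0022118, chromosome 2, 163506857 to 163572907). Hnf4a had 4029, 10045 and 5144 normalised reads in the PBC livers, 3828, 5257 and 3895 in the PSC livers and 8105, 10523, 6090.0 and 7993 in the control livers. PSC livers, PBC 7 and PBC 9 were below every control liver, and PBC 8 lay within the control range. Hnf4a fell by 0.91 in PSC (SE 0.29, adjusted p = 0.0488), close to the threshold, and its log2 fold change in PBC was -0.44 (adjusted p = 0.356), or -0.82 (adjusted p = 0.0317) without PBC 8. The Hnf4a change in PSC no longer passed the test without PBC 9, PSC 11, PSC 13, PSC 14, control 1, control 2 or control 4, with no filter on low values, with TMM scaling, or with edgeR (adjusted p 0.0551 to 0.174). The antisense gene Hnf4aos overlaps Hnf4a over 34865 bases, with a mean of 477 normalised reads beside 6491 for Hnf4a. Hnf4g, the gamma form, had 4.23 to 43.02 normalised reads in PBC, 0 to 9.7 in PSC and 8.33 to 38.9 in control livers, and the log2 fold change of Hnf4g was -0.35 in PBC (adjusted p = 0.85) and -2.18 in PSC (adjusted p = 0.14). Without PBC 8 the log2 fold change of Hnf4g in PBC was -1.11 (adjusted p = 0.493). Of 14 HNF4A target genes, 1 rose in PBC (median log2 fold change 0.052), and 1 rose and 2 fell in PSC (median -0.13). Cps1, for the first enzyme of the urea cycle, rose by 0.96 in PBC (SE 0.23, adjusted p = 0.0198). In PSC livers Serpina1e, for an alpha-1-antitrypsin form with near-identical paralogs, fell by 2.45 (SE 0.74, adjusted p = 0.042). Mttp, for the protein that loads lipid onto apolipoprotein B, fell by 0.63 (SE 0.19, adjusted p = 0.0428), whereas the apolipoprotein gene Apoa4 rose by 1.37 (SE 0.42, adjusted p = 0.0427). Against PSC livers, PBC livers were 3.77 higher for Serpina1e (adjusted p = 0.0259) and had a log2 fold change of -2.44 for Apoa4 (adjusted p = 0.0121). The Cps1 change in PBC no longer passed the test without PBC 7, PBC 9 or control 1 or with only the compared groups fitted (adjusted p 0.0571 to 0.109). The Serpina1e change in PSC no longer passed the test without PSC 11, PSC 13, PSC 14, control 1, control 2 or control 3 or with no filter on low values (adjusted p 0.0513 to 0.159). The Mttp change in PSC no longer passed the test without PBC 7, PSC 11, PSC 13, PSC 14, control 2 or control 4 or with no filter on low values (adjusted p 0.0538 to 0.155). The Apoa4 change in PSC no longer passed the test without PBC 9, PSC 11, PSC 13, PSC 14, control 1, control 2, control 3 or control 4, with no filter on low values, or with the length trend removed (adjusted p 0.051 to 0.219). Without control 4 the Serpina1e change in PSC was -3.29 (adjusted p = 0.00105). The Serpina1e change between PBC and PSC no longer passed the test without PBC 7, PSC 11, PSC 13 or PSC 14 (adjusted p 0.0639 to 0.131). The Apoa4 change between PBC and PSC no longer passed the test without PSC 14 (adjusted p = 0.0698). Without PBC 7 the Serpina1e difference was 3.06 (adjusted p = 0.0899).

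Nr5a2 encodes LRH-1, which activates bile acid synthesis genes (GSMG0002156, chromosome 1, 136843584 to 136960448). Nr5a2 had 711, 1805 and 667 normalised reads in the PBC livers, 561, 702 and 399 in the PSC livers and 1558, 1019, 932 and 1420.3 in the control livers. PSC livers, PBC 7 and PBC 9 were below every control liver and PBC 8 above them. Nr5a2 fell by 1.16 in PSC (SE 0.34, adjusted p = 0.037), and its log2 fold change in PBC was -0.34 (adjusted p = 0.557). The Nr5a2 change in PSC no longer passed the test without PSC 11, PSC 13, PSC 14, control 1, control 2 or control 4 (adjusted p 0.0514 to 0.175). Nr0b2 encodes SHP, a receptor without a DNA-binding domain that FXR induces and that represses LRH-1 and HNF4 alpha. Nr0b2 had 7508, 5138 and 6636 normalised reads in the PBC livers, 6023, 12307 and 3975 in the PSC livers and 5809.7, 6104, 5055 and 2493 in the control livers. PSC 13 was highest and control 4 lowest of all livers, and the log2 fold change of Nr0b2 was 0.47 in PBC (adjusted p = 0.453) and 0.53 in PSC (adjusted p = 0.357).

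Nr6a1 encodes GCNF, a repressor best known from embryonic and germ cells (GSMG0022735, chromosome 2, 38723370 to 38927688). Nr6a1 had 49.7, 95.6 and 50.8 normalised reads in the PBC livers, 30.01, 30.7 and 24.7 in the PSC livers and 185, 74.5, 138 and 146 in the control livers. PSC livers were below every PBC and every control liver, and PBC 7 and PBC 9 were below the controls. Nr6a1 fell by 2.15 in PSC (SE 0.38, adjusted p = 0.00297), and its log2 fold change in PBC was -1.04 (adjusted p = 0.1), or -1.34 (adjusted p = 0.0319) without PBC 8 and -1.30 (adjusted p = 0.0425) without control 2. The PSC decrease held in all 19 alternatives, with log2 fold changes of -2.41 to -1.76. The testicular receptors TR2 (Nr2c1) and TR4 (Nr2c2) bind direct repeats of the half-site, together or alone. Nr2c1 (GSMG0003424, chromosome 10, 94147918 to 94197214) had 542, 542 and 533 normalised reads in the PBC livers, 339, 293 and 319 in the PSC livers and 529.8, 433, 473 and 752 in the control livers. PSC livers were below every PBC and every control liver, the PBC livers lay within the control range, and Nr2c1 fell by 0.76 in PSC (SE 0.22, adjusted p = 0.0371). Nr2c2 (GSMG0032234, chromosome 6, 92091418 to 92174294) had 84.6, 315 and 48.7 normalised reads in the PBC livers, 60.03, 121 and 73.95 in the PSC livers and 288, 269.6, 253 and 346 in the control livers. PSC livers, PBC 7 and PBC 9 were below every control liver, while PBC 8 lay within the control range. Nr2c2 fell by 1.80 in PSC (SE 0.49, adjusted p = 0.0282), and its log2 fold change in PBC was -1.38 (adjusted p = 0.0917), or -2.14 (adjusted p = 0.00234) without PBC 8. The Nr2c2 model overlaps Mrps25 by 4770 bases on the opposite strand, and Mrps25 averaged 2297 normalised reads beside 186 for Nr2c2. The Nr2c1 change in PSC no longer passed the test without PSC 11, PSC 13, PSC 14, control 1 or control 4 or with no filter on low values (adjusted p 0.0514 to 0.127). The Nr2c2 change in PSC no longer passed the test without PSC 11, PSC 14, control 1, control 2 or control 4 (adjusted p 0.0521 to 0.111).

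The COUP-TF genes encode orphans that often act as repressors. Nr2f2 ranged from 169 to 339 normalised reads in PBC, 143 to 205 in PSC and 259 to 319 in control livers, with every PSC liver below every control liver, and the log2 fold change of Nr2f2 was -0.42 in PBC (adjusted p = 0.356) and -0.78 in PSC (adjusted p = 0.0704). Nr2f6 ranged from 16611 to 25163 normalised reads in PBC, 19549 to 23242 in PSC and 11301 to 22477 in control livers, and the log2 fold change of Nr2f6 was 0.32 in PBC (adjusted p = 0.44) and 0.31 in PSC (adjusted p = 0.426). Nr2f1 ranged from 11.2 to 14.8 normalised reads in PBC, 8.09 to 13.2 in PSC and 2.57 to 10.4 in control livers, and the log2 fold change of Nr2f1 was 0.93 in PBC (adjusted p = 0.373) and 0.70 in PSC (adjusted p = 0.493). The Nr2f2 change in PSC passed the test with DESeq2, with only the compared groups fitted, without PBC 8, and without control 4 and PBC 8 (adjusted p = 0.0371, 0.0286, 0.0222 and 0.043).

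The estrogen-related receptors control mitochondrial genes and bind no estrogen. Esrra ranged from 1365 to 1809.9 normalised reads in PBC, 1824 to 2711 in PSC and 1426 to 2377 in control livers, with every PBC liver below every PSC liver, and the log2 fold change of Esrra was -0.18 in PBC (adjusted p = 0.643) and 0.29 in PSC (adjusted p = 0.405). Esrrb ranged from 0 to 35.1 normalised reads in PBC, 0 to 6.47 in PSC and 10.2 to 19.4 in control livers, and the log2 fold change of Esrrb was -1.47 in PBC (adjusted p = 0.423) and -2.58 in PSC (adjusted p = 0.13). Esrrg ranged from 0 to 31.9 normalised reads in PBC, 3.23 to 9.38 in PSC and 25.6 to 49.98 in control livers, and the log2 fold change of Esrrg was -2.54 in PBC (adjusted p = 0.101) and -2.28 in PSC (adjusted p = 0.119). Every PSC liver was below every control liver for Esrrb and Esrrg, and the PSC levels were a few reads. Without PBC 8 the log2 fold change of Esrrb in PBC was -2.77 (adjusted p = 0.089), and in PSC it passed the test with only the compared groups fitted (adjusted p = 0.0377). Esrrg in PSC passed the test in 5 alternatives, which were a pseudocount of 10, DESeq2, only the compared groups fitted, and without PBC 8 or PBC 9 (adjusted p = 0.0413, 0.0306, 0.0104, 0.0402 and 0.0337). Esrrg passed it in PBC without PBC 8 with a log2 fold change of -3.79 (adjusted p = 0.00878).

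The NR4A genes are immediate early genes that respond within minutes to stress and hormones. Nr4a1 had 1955, 7230.2 and 5730.1 normalised reads in the PBC livers, 4080.1, 3203 and 1579 in the PSC livers and 2486, 1647, 2547 and 73.6 in the control livers. Control 4 was far below the other controls and every other liver, PBC 8 was highest, the groups overlapped, and the log2 fold change of Nr4a1 was 2.20 in PBC (adjusted p = 0.167) and 1.55 in PSC (adjusted p = 0.309). Without control 4 the log2 fold change of Nr4a1 was 0.99 (adjusted p = 0.189) in PBC and 0.33 (adjusted p = 0.674) in PSC. Nr4a2 ranged from 9.95 to 33.9 normalised reads in PBC, 7.5 to 37.8 in PSC and 15.3 to 28.5 in control livers, and the log2 fold change of Nr4a2 was -0.30 in PBC (adjusted p = 0.789) and -0.23 in PSC (adjusted p = 0.835).

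Of 15 coactivators, 3 fell in PSC, where 6.48% of all gene models fell (median log2 fold change -0.65, beside 0.057 over all gene models), and limma called 0 in PBC (median -0.0048). Of the coactivators in PBC, limma had 1 higher and 1 lower at an unadjusted p under 0.05, and at the adjusted threshold edgeR called 0 higher and 0 lower and DESeq2 0 higher and 0 lower. Kat2b, for the acetyltransferase PCAF, fell by 1.65 (SE 0.35, adjusted p = 0.00782). Ncoa2, a p160 coactivator gene, fell by 1.94 (SE 0.42, adjusted p = 0.00917), and Ppargc1a, for the fasting-induced coactivator PGC-1 alpha, fell by 1.38 (SE 0.41, adjusted p = 0.0413). Of 9 corepressors, 1 fell in PSC (median -0.56) and limma called 0 in PBC (median -0.31). Of the corepressors in PBC, limma had 2 higher and 0 lower at an unadjusted p under 0.05, and at the adjusted threshold edgeR called 0 higher and 0 lower and DESeq2 0 higher and 0 lower. Ncor1, the nuclear receptor corepressor gene, fell by 1.51 in PSC (SE 0.38, adjusted p = 0.0197). The Ncoa2 change in PSC no longer passed the test without PSC 14 (adjusted p = 0.0574). The Ppargc1a change in PSC no longer passed the test without PSC 11, PSC 13, PSC 14, control 1, control 3 or control 4, with no filter on low values, or with the length trend removed (adjusted p 0.0523 to 0.156). The Ncor1 change in PSC no longer passed the test without PSC 11, PSC 14 or control 1 (adjusted p 0.0542 to 0.0912).

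The receptors that fell in PSC had long transcripts. Their longest annotated transcripts had a median of 6070.5 bases (3732 to 10878), against 2778 (1132 to 5373) in the other 28 receptors and 2978 over 14026 tested genes with an annotated length. Among transcripts of at least 3633 bases, 10 of 15 receptors fell, against 13.9% of 5258 genes. Among shorter transcripts 0 of 23 receptors fell, against 3.72% of 8768 genes. Libraries differed in the same measure. The longest eighth of transcripts relative to the shortest was at -0.08, 1.06 and -0.22 on the log2 scale in PBC livers 7, 8 and 9, at -0.22, -0.53 and -0.79 in PSC livers 11, 13 and 14, and at 0.31, 0.70, -0.40 and 0.35 in control livers 1 to 4. With the length trend of each library removed, 9 of the 10 receptors remained lower in PSC. Esr1 then had a log2 fold change of -1.61 (adjusted p = 0.00115), Nr6a1 of -1.76 (adjusted p = 0.00471), Thrb of -1.84 (adjusted p = 0.0119) and Nr3c1 of -1.42 (adjusted p = 0.00786). Nr3c2 no longer passed the test, at -0.85 (adjusted p = 0.0898), while Nr1i2 and Nr1i3 passed it as lower, at -0.47 (adjusted p = 0.0407) and -0.70 (adjusted p = 0.0432). In PBC, Nr3c1, Nr2c2 and Nr1i2 passed it as lower after the trend was removed, at -1.05 (adjusted p = 0.0373), -1.43 (adjusted p = 0.0327) and -0.52 (adjusted p = 0.0315). The difference of Esr1 between PBC and PSC livers was 1.41 (adjusted p = 0.0125). What gave the libraries their length trends was not tested.

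**Figure D5:**
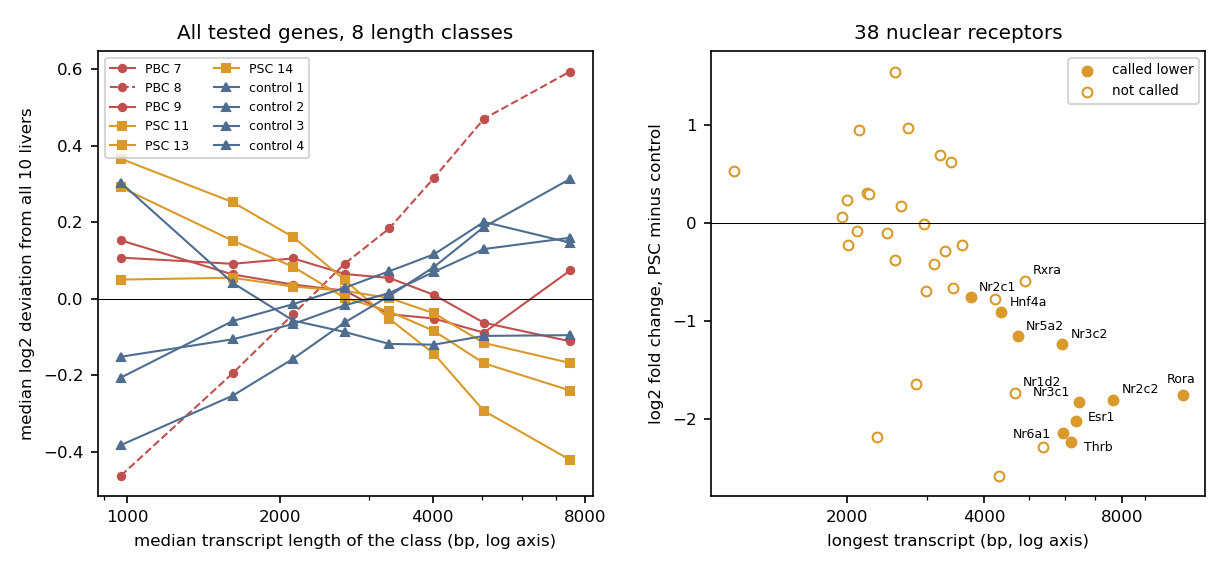
Left, the median log2 deviation of each library from the mean of all 10 in 8 classes of transcript length, over 14026 genes; right, the log2 fold change of the 38 receptors in PSC against control by the length of the longest transcript (log axis). PBC 8 climbs with length while the 3 PSC libraries decline, and the 10 filled points on the right all lie at 3732 bases or more.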

How the data were processed

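RNA of 10 mouse livers (3 PBC, 3 PSC and 4 control) was sequenced as paired poly(A) libraries. The submitters' processing notes name the mm10 build, STAR 2.4.0 as aligner, FastQC, Picard, SAMtools and DESeq2. The sources used here do not say how reads were counted or whether strand was used. The authors deposited a signal, the DESeq2-normalised number of reads for each gene model. Values below a fixed number of steps were checked in each library, and all of these were whole multiples of 1 step (tolerance 0.1). Reads were recovered by division and rounding. Higher values were treated in the same way without this check. The members and lists were chosen with earlier results of these data known.

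Gene models with at least 10 normalised reads in at least 3 libraries were tested on log2(value + 1) with limma 3.58.1 (R 4.3.3), with an intensity trend and all 10 libraries in 1 fit. P-values were adjusted by Benjamini and Hochberg over 18390 models, with a threshold of 0.05. All 38 receptors that passed the filter are named, and of each of 12 partner lists at most 4 called genes with the smallest adjusted p plus those against the list's main direction. Alternatives were a pseudocount of 10, no filter, a filter at 50, TMM scaling, edgeR 4.0.16 and DESeq2 1.42.0 on the recovered reads, only the compared groups, and leaving out each library. The recovered reads were whole for 100% of the values checked. A pair of alternatives was chosen after seeing the data. One left out control 4 and PBC 8, and the other subtracted from each library a lowess curve (span 0.3) of its deviation on the longest GENCODE M21 transcript, over 14026 genes. edgeR on the recovered reads called 1570 genes in PBC, 2612 in PSC and 416 between the models. Per-length levels use the union of annotated exons. The fit was tested on simulated data. These had the same spread setting for every gene, no length trend and no outlying library. The simulation therefore cannot show how such features affect the calls. The libraries carry separate numbers, read here as separate mice, and nothing more is stated about cages or days. On that reading, p-values measure the spread between these mice. Counting floors cover counting error only.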

Additional observations from a re-analysis of the deposited data

Results flagged for a closer look

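Among the 4 control livers, control 4 stood far from the other 3 in 3 receptors, at 10090.5 normalised reads for Nr1h4, 5608 for Nr1i2 and 73.6 for Nr4a1. On the scale of log2(normalised reads + 1), the gap to the nearest control took 0.876, 0.864 and 0.877 of the group's range, above Dixon's critical value for a group of this size, which chance passes in about 1 in 20 groups. All 38 receptors were screened in this way, so gaps of this size can be met by chance among them. The share over all gene models was not taken. On the linear scale the gap took 0.900, 0.878 and 0.636 of the range for these receptors and 0.841 for Pparg, so that Nr4a1 was then under the critical value and Pparg above it. Esr1 differed between the models in a direct limma test, with PBC livers 1.82 above PSC livers on the log2 scale (adjusted p = 0.0171), and all 3 PBC livers were above all 3 PSC livers. Of all gene models 1.11% were called higher in this comparison and 14.6% were higher without overlap. The Esr1 call was lost without PSC 13 or PSC 14.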

How the results depend on the processing

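No paired analysis was possible because the groups share no mouse number. Of 13 receptor calls, 2 (Esr1 and Nr6a1 in PSC) held in every alternative run, as did 15 of 54 calls of partner genes, and no called value changed sign. Against 2 receptors called in PBC, 1 was called with only the compared groups, 5 with the length trend removed and 10 without control 4 and PBC 8, and 0 to 10 with 1 library left out. Against 10 in PSC, 2 to 15 were called with 1 library left out. Against 1 between the models, 2 were called with DESeq2 and 0 to 1 with 1 library left out. Of the partner genes, 17 were called in PBC, against 10 with no filter, 7 with only the compared groups, 26 with the length trend removed, 42 without control 4 and PBC 8, and 5 to 31 with 1 library left out. In PSC 30 were called, against 48 with DESeq2, 46 without control 4 and PBC 8, and 8 to 45 with 1 library left out. Between the models 7 were called, against 17, 13 and 4 to 9 under the same settings. Over all genes, 1828 were called in PBC, against 841 with only the compared groups, 3258 without control 4 and PBC 8, and 736 to 3364 with 1 library left out. In PSC 2710 were called, against 925 to 3813 with 1 library left out, and between the models 412, against 1213 with DESeq2 and 104 to 563 with 1 library left out. The cause of these differences was not tested. With 3 or 4 livers a group, receptors of a few reads, such as Esrrb, Esrrg, Hnf4g and Nr2f1, had SEs of up to 1.17 on the log2 scale. Wide SEs were not confined to them. Nr4a1, at 73.6 to 7230 normalised reads, had SEs of 0.97 to 1.04.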
